A study of Drosophila melanogaster with 3 samples.

Results

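The X chromosome peaks are the binding sites of the CG33213-eGFP fusion protein whose summit, the position of highest ChIP signal in the peak, lies on chromosome X. They were taken from the list of reproducible peaks that the study's optimal IDR step kept across its replicates. IDR is the irreproducible discovery rate, a measure of how well ranked lists from replicates hold together. On the 6 chromosome arms X, 2L, 2R, 3L, 3R and 4 this list held 4417 peaks, and 726 of them (16.4%) were on X. The other 3691 peaks, on the autosomes, served as the comparison.

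The study profiled a single Drosophila melanogaster line by ChIP-seq in 3 biological replicates, with no second condition. All 3 carried the same transgene, CG33213 fused at its C terminus to GFP, and all came from whole embryos of both sexes pooled, collected 0 to 24 h after laying. Chromatin was sheared by sonication and immunoprecipitated through the GFP tag, although the antibody label of the samples names CG33213. The line is 1 donor stock, the labels do not say which promoter drives the fusion, and the mixture holds every embryonic cell type. The control library is not analysed here. The peak lists hold no read counts, so the sequencing depth behind each peak is unknown. Because male embryos carry 1 X chromosome and females a pair, a lower X DNA dose and weaker X binding cannot be told apart in mixed-sex chromatin.

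The fly X chromosome is rich in genes used in both sexes, and in males its transcription is raised by the MSL dosage compensation complex, which contains the acetyltransferase MOF and the non-coding roX RNAs and spreads over active X genes from entry sites rich in GA repeats. Fly genes are compact and many housekeeping genes are arranged head to head, with a pair of divergent promoters close together. Such promoters often carry the DNA replication-related element (DRE) bound by DREF, the overlapping CGATA word bound by the insulator protein BEAF-32, or the Motif 1 element bound by M1BP. CG33213 is annotated as Boh1, and no function is assumed for it below.

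The windows of 50 bp on each side of 9 X summits follow, all on the plus strand of dm6, read from the RefSeq copy of that assembly. The first group holds the 3 strongest X peaks, at Ugalt (chrX:2703841-2703941), ph-p (chrX:2137294-2137394) and in an intron of CG32772 (chrX:4910341-4910441). The second holds the next strongest intronic peaks, in Tlk (chrX:3742184-3742284) and NFAT (chrX:13640464-13640564). The third holds the 3 strongest X peaks with a complete DRE, at RpS15Aa (chrX:13337630-13337730), RpS10b (chrX:19597953-19598053) and Rnp4F (chrX:5322716-5322816). The last is the start of the roX2 RNA gene (chrX:11579016-11579116), chosen after its value was seen. Capitals mark CGATA or GGTCACAC on either strand, so the palindrome TATCGATA of the DRE, which contains CGATA on both strands, appears whole.
Ugalt: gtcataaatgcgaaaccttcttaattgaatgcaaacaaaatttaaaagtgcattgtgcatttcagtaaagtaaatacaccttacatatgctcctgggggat
ph-p: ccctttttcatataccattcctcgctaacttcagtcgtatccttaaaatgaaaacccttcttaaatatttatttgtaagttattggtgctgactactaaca
CG32772: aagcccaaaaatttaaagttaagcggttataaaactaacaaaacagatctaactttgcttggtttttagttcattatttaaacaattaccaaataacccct
Tlk: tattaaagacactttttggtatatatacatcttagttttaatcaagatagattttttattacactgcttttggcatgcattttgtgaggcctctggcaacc
NFAT: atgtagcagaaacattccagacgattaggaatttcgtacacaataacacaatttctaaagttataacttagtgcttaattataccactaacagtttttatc
RpS15Aa: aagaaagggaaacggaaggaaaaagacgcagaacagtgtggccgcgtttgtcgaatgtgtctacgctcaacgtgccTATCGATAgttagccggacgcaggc
RpS10b: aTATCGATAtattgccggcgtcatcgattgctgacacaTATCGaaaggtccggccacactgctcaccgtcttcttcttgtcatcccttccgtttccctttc
Rnp4F: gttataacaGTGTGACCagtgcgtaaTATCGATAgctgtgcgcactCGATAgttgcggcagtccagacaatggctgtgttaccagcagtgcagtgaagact
lncRNA:roX2: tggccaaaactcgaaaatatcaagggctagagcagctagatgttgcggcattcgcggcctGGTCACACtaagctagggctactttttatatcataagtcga
The 5 strongest of these windows hold neither word and are rich in A and T, with a GC content of 33.7% at Ugalt, 32.7% at ph-p, 27.7% at CG32772, 31.7% at Tlk and 29.7% at NFAT. The windows with a DRE have 52.5% at RpS15Aa and 49.5% at both RpS10b and Rnp4F.

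The strongest X site lay 39 bp upstream of the start of Ugalt, a gene for a carrier of UDP-galactose into the Golgi. By peak signal it ranked 2 of the 4417 optimal peaks, and replicates 1, 2 and 3 gave it ranks of 3, 3 and 1. The next lay inside ph-p, 489 bp upstream of an internal start of this gene for the Polycomb repressive complex subunit Polyhomeotic-proximal. It had rank 6 and replicate ranks of 6, 5 and 7. In replicate 2 this summit was more than 500 bp from any ph-p start, and the best ph-p promoter rank was 336. An intronic peak of CG32772 ranked 13, and 14 in every replicate. These 3 sites held nearly the same place in every list, while places further down moved more. The 3′ UTR peak nearest to the start of CG16989 ranked 79 in the optimal list but 28, 227 and 139 in the replicates.

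Among the 25 strongest X peaks present in all 3 replicates, drawn in the plot of ranks by gene, 15 were at promoters of annotated genes and 7 in introns. A pair of summits, ranked 17 and 35, lay 429 and 488 bp from starts of lncRNA:CR44619. Intronic peaks of Tlk, the Tousled-like kinase, NFAT, a transcription factor, and Raf, the kinase above MEK and ERK, ranked 42, 43 and 55. The promoter of Atf3, a bZIP transcription factor, ranked 69, and the shared promoter of Atg8a, the ubiquitin-like protein of autophagosomes, and BTBD9 ranked 63. The promoter of Stt3A, the catalytic subunit of oligosaccharyltransferase, and bves ranked 75, and that of TRAM, a component of the endoplasmic reticulum translocon, ranked 80. The promoter of dnc, the cAMP phosphodiesterase required for learning, ranked 93, and an intronic peak of norpA, the phospholipase C of phototransduction, ranked 117. The promoters of MFS10, Ptpmeg2, CG4586, RpL22 and moody, the latter a receptor of the glial blood-brain barrier, ranked 61, 120, 135, 145 and 147. Intronic peaks of CG3726 and LPCAT ranked 65 and 77, intergenic peaks near CG17896 and lncRNA:CR42794 ranked 94 and 104, and the promoter of CG3918 and CG42340 ranked 111. At the other end, the weakest X peaks were an intronic peak of sn, the actin-bundling protein fascin, at rank 4408, one at snoRNA:U3:9B at 4409 and an intronic peak of CG43759 at 4410. The sn peak had ranks of 2992, 9460 and 5386 in the replicates, a spread far wider than that of the leading sites.

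As a class, X peaks differed from autosomal peaks in strength by less than the spread between replicates. On a percentile scale where 100 is the strongest peak of a list, the median X peak stood at 49.9 and the median autosomal peak at 50.1. In replicates 1, 2 and 3 the X median was 49.98, 52.5 and 49.2 against 50, 49.75 and 50.1, and the sign of the difference was not shared by all 3. The difference was 0.59 ± 1.94 percentile points (mean ± SD, n = 3; exact two-sided sign permutation test, p = 1.0). Of the X peaks, 71 (9.78%) were among the strongest 10% of the list, against 10.02% of the autosomal peaks.

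The X share of peaks was close to its share of genes and start sites. X has 17.6% of the length of the 6 arms, 16.6% of their transcription start site (TSS) positions and 15.7% of their protein-coding genes. The strongest 4417 peaks of replicates 1, 2 and 3, the same number as in the optimal list, held 726, 699 and 717 X peaks, or 16.4, 15.8 and 16.2%. Per Mb, X had 30.8 peaks and the autosomes 33.5, with the 4 long autosomal arms between 31.6 and 35.8. Per 1000 TSS positions X had 186 peaks, inside the range of 176 to 196 of those arms. The replicates had 186, 179 and 184 on X and 188, 189 and 188 on the autosomes, and replicate 2 put X below each long arm. X thus had fewest peaks per Mb of the long arms in all 4 lists, and per start site in replicate 2 alone.

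Matching each optimal summit to a summit within 150 bp among the strongest 4417 peaks of a replicate, 449 of 726 X peaks (61.8%) were found in all 3 replicates. The share over all arms was 62.4%, so X peaks were found about as often as the rest. Another 190 X peaks were found in 2 replicates, 80 in 1 and 7 in none. The stronger peaks were found more often: 95.0% of the X peaks in the stronger 50% of the list, and 29.0% of those in the weaker 50% were in all 3. Promoter peaks on X were found in all 3 in 267 of 428 cases and intronic peaks in 136 of 228.

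What set X apart was where its summits lay. Summits within 500 bp of a TSS, called promoter peaks here, made up 428 of 726 on X (59.0%), against 64.7% over all arms and 65.8% on the autosomes. In replicates 1, 2 and 3 the promoter share on X was 60.1, 58.8 and 58.0%, and on the autosomes 65.6, 65.5 and 63.7%. Every X value lay below every autosomal value, and X was below each of the 4 long autosomal arms in all 4 lists. The difference was −6.00 ± 0.605 percentage points (n = 3 replicates). The exact two-sided sign permutation test gave p = 0.25, the smallest value that 3 replicates allow, and an adjusted p of 0.315 over the 29 differences tested, so it cannot reach 0.05. The same p and adjusted p apply to each of these 29 differences that has 1 sign in all 3 replicates. These p-values measure the spread between the replicates only. Differences below in median promoter position, first-intron share, 3′ UTR share and median rank of intronic peaks were not among the 29 and have no test.

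The shortfall was at the start site itself. On X, 244 summits (33.6%) lay within 100 bp of a TSS, against 43.8% on the autosomes. The replicate values were 35.1, 31.3 and 33.8% on X and 42.5, 40.9 and 41.3% on the autosomes, without overlap. Summits beyond 100 and up to 500 bp away were instead more frequent on X, with 184 peaks (25.3%) against 22.0%, and with 24.9, 27.5 and 24.3% against 23.1, 24.6 and 22.5% in the replicates. Among promoter peaks alone, 57.0% on X and 66.6% on the autosomes were within 100 bp. Upstream of the start lay 78.3% of X and 80.5% of autosomal promoter peaks, a share whose difference changed sign between replicates. Their median position, negative where upstream, was −63 bp on X and −55 bp on the autosomes. The replicates gave −63, −66 and −60 bp against −52, −59 and −50.5 bp, farther upstream on X each time.

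**Figure D1:**
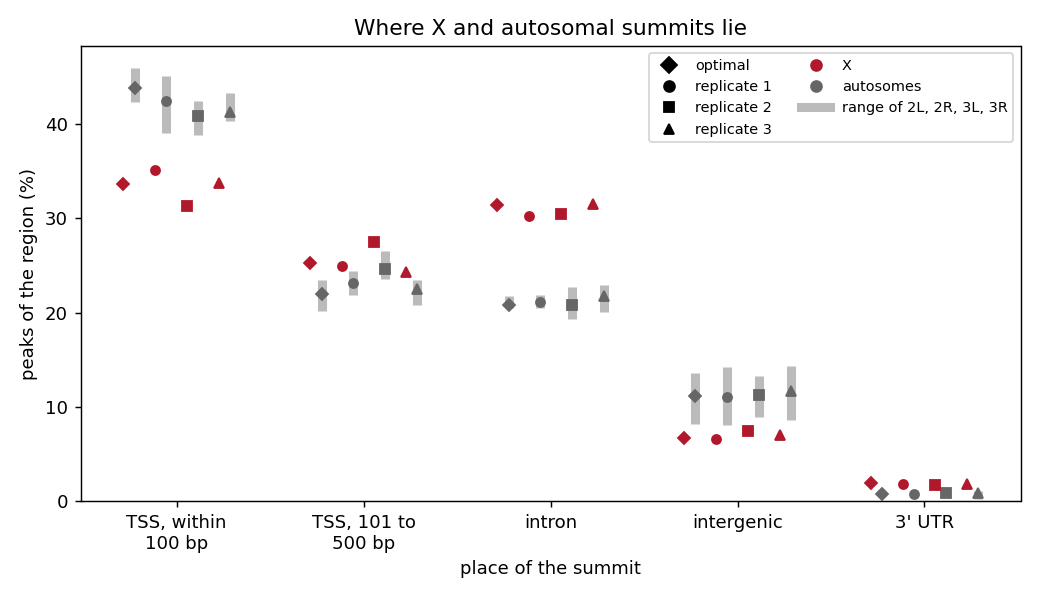
Share of X peaks (red) and autosomal peaks (dark grey) by place of the summit, in percent, with 1 symbol for each of the 4 lists and a light grey bar for the range of the arms 2L, 2R, 3L and 3R. X lies below the range within 100 bp of a TSS (33.6% in the optimal list) and above it in introns (31.4%).

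Introns held the difference. Intronic summits, more than 500 bp from any TSS, numbered 228 on X (31.4%) and 768 on the autosomes (20.8%). The plot of shares by place of the summit shows X values of 30.2, 30.5 and 31.5% in the replicates and autosomal values of 21.1, 20.8 and 21.8%. The difference of 9.51 ± 0.367 percentage points (n = 3) had 1 sign in all 3 replicates and put X above each long autosomal arm, 20.5 to 21.8%, in the optimal list. It was present close to promoters and far from them. Intronic summits within 2 kb of a TSS made up 14.2% of X peaks (103 of 726) and 8.72% of autosomal peaks, and those beyond 2 kb were 125 (17.2%, against 12.1%).

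Introns outside promoters took 43.3% of the length of X and 38.6% of that of the autosomes, and the part of this in the intronic share was not tested. Per Mb of intron sequence X carried 22.3 intronic peaks and the autosomes 18.02, with 16.7 to 20.0 on the 4 long arms. In replicates 1, 2 and 3 these densities were 21.5, 20.9 and 22.1 on X and 18.3, 18.1 and 18.9 on the autosomes, again without overlap. Promoter peaks were sparser per Mb of promoter sequence on X, 144 against 160, and so were intergenic peaks per Mb of intergenic sequence, 9.23 against 13.3.

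The intronic share stayed higher on X when genes with several intronic peaks were given less weight. Counting only the strongest intronic peak for each set of overlapping host genes left 133 on X, or 21.1% of the peaks then kept, against 15.3% on the autosomes and 14.5 to 16.5% on the long arms. The difference fell from 10.6 to 5.80 percentage points, and X stayed above the arms. Only intronic peaks were removed, so the share had to fall in both groups, from 31.4% on X and 20.8% on the autosomes. The smaller difference therefore does not show how much of the excess came from genes with several intronic peaks. This count was added after the values were seen. Fewer of the intronic summits on X were in a first intron, 145 of 228 (63.6%) against 71.1%, with 67.1, 63.4 and 65.5% against 72.0, 72.5 and 71.3% in the replicates.

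The genes with most X summits, named after their values were seen, were mostly long ones. Their counts were not divided by length, so a high count in a long gene need not mean dense binding. The whole of X had 30.8 peaks per Mb. The 239347 bp lncRNA:CR44357 held 15 summits within its span or 500 bp of it, 11 of them intronic. The gene CG1677 lies inside the same interval, and its 13 summits are counted for both genes. The kirre gene of 394149 bp, which encodes an immunoglobulin-domain adhesion protein of muscle founder cells, had 11 summits by the same count. Of these 10 lay within its span, and the other was the N promoter summit at rank 311. CHES-1-like, a forkhead transcription factor gene of only 27048 bp, held 10, of which 6 were in all 3 replicates. Raf and Tlk held 9 each, and the nuclear receptor gene Hr4 and NFAT held 7 each. In all, 140 X genes hosted an intronic summit, and their median length was 22979 bp. Of these hosts 65 (46.4%) also had a summit within 500 bp of a start, against 51.3% of the autosomal hosts. Intronic X peaks had a median rank percentile of 47.1, against 43.6 for autosomal intronic peaks. The replicate medians were 47.8, 53.3 and 48.0 against 44.2, 44.5 and 44.1, above each long arm in every replicate and within their range in the optimal list.

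The remaining classes were small on X. Intergenic summits were 49 (6.75%) against 11.2%, and 6.61, 7.44 and 6.97% against 11.1, 11.3 and 11.7% in the replicates. Summits in 3′ UTRs were 14 (1.93%) against 27 (0.732%) on the autosomes, and 13, 12 and 13 X peaks in the replicates. The share in 3′ UTRs was above each of the 4 long arms in all 4 lists, on these small counts. 5′ UTRs away from a TSS held 5 X summits, and coding exons and non-coding exons 1 each.

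Fewer X genes had a bound promoter. A gene is called bound when an optimal summit lies within 500 bp of any of its TSSs. Of 2813 X-linked genes 541 were bound (19.2%), against 20.7% of all genes and 19.2 to 22.0% on the 4 long arms. Of 2196 protein-coding X genes 486 were bound (22.1%), against 25% over all arms and 25.5% on the autosomes. The replicates gave 22.2, 21.8 and 21.6% on X and 25.2, 25.7 and 24.4% on the autosomes, and X lay below all 4 long arms in every list. The difference was −3.25 ± 0.627 percentage points (n = 3). When each peak was given only to its nearest TSS, the difference in the optimal list was −1.96 instead of −3.37 points.

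Head-to-head genes are those with a TSS within 500 bp of the start of a divergent protein-coding neighbour. Of 566 such genes on X 226 were bound (39.9%), against 48.2% on the autosomes and 45.1 to 51.9% on the long arms. Replicates 1, 2 and 3 gave 38.7, 40.6 and 37.5% on X and 47.6, 49.9 and 45.4% on the autosomes, and no X value reached an autosomal one. Of 289 such pairs on X 120 (41.5%) had a bound member, against 50.1%. The other protein-coding genes of X were bound in 260 of 1630 cases (16.0%), against 16.8%, inside the range of the long arms. Their replicate values were 16.4, 15.2 and 16.1% on X and 16.6, 16.5 and 16.4% on the autosomes. X was lower in each, with a difference of −0.561 ± 0.627 points (n = 3), and below each long arm in replicate 2. The 2 gene classes were not compared with each other in a test.

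**Figure D2:**
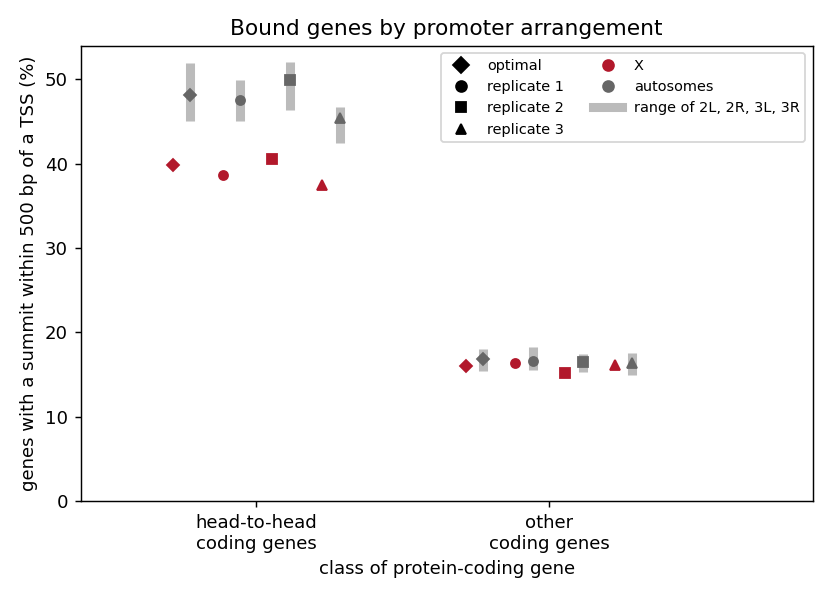
Share of protein-coding genes with a summit within 500 bp of a TSS, in percent, for genes in head-to-head pairs and for the others. Symbols and colours are X (red), autosomes (dark grey) and the range of 2L, 2R, 3L and 3R (light grey bar) in 4 lists; X lies below the bars for head-to-head genes (39.9% in the optimal list) and near them for the others (16.0%).

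X summits were spaced more widely than autosomal ones in each replicate, and unevenly along the arm. The median distance between neighbouring X summits was 11523 bp, with quartiles of 3554 and 32922 bp, against 10824 bp on the autosomes and 9656 to 11922 bp on the long arms. The replicate medians were 11835, 11828 and 11784 bp on X and 10797, 10826 and 11059 bp on the autosomes. The X median was longer in each replicate, by 922 ± 171 bp (n = 3). It was above each of the 4 long arms in replicates 1 and 2 and within their range in replicate 3 and the optimal list. The difference in the optimal list, 699 bp, was 2718 bp in the 50% of peaks with higher signal and 2446 bp in the peaks found in all 3 replicates. It was 2396, 1647 and 3644 bp when replicate 1, 2 or 3 was left out of that matching. Gaps under 1000 bp numbered 59 on X (8.14%, against 7.62% on the autosomes). In replicates 1, 2 and 3 their share was instead lower on X, 7.45, 7.88 and 7.54% against 8.36, 8.43 and 8.36%. Gaps above 100 kb numbered 57 on X, where 92.1% of gaps were no longer than that, against 94.0% on the autosomes.

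The 50% of X farther from the centromere held 447 peaks, 22.3 per 100 TSS positions, and the 50% nearer to it 279, 14.6 per 100. In replicates 1, 2 and 3 the far part had 450, 428 and 442 peaks and the near part 276, 271 and 275. The far-to-near ratio of peaks per TSS was 1.53 on X, compared with 1.19 on 2L, 0.777 on 2R, 1.10 on 3L and 0.974 on 3R in the optimal list. X was the most uneven of the 5 long arms in this measure, which was given no test. How well reads map in each part was not examined. Over the 23 full 1 Mb segments of X the counts ran from 3 to 54 with a median of 35, and Spearman's rho between peaks and TSS positions was 0.55, a description across segments of the same libraries.

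**Figure D3:**
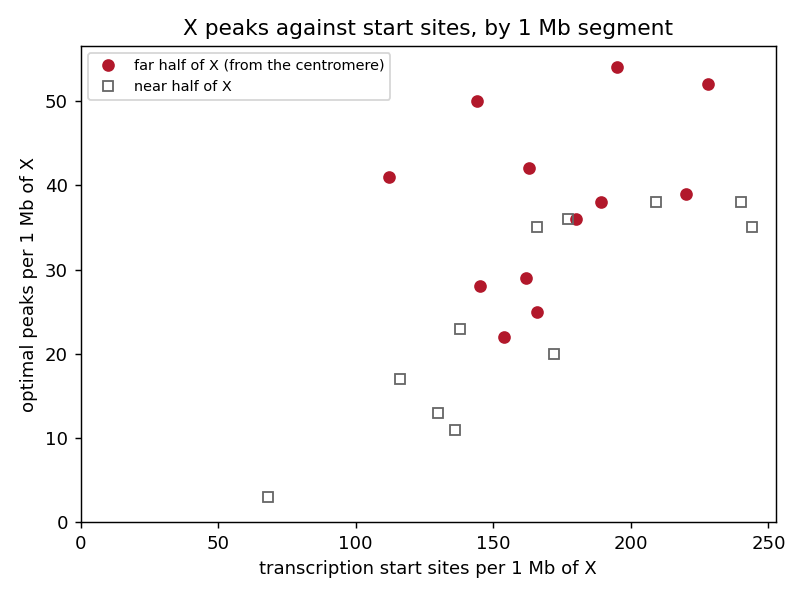
Optimal peaks against TSS positions for each of the 23 full 1 Mb segments of X. Filled circles are the 12 segments farthest from the centromere and open squares the others; counts run from 3 to 54 peaks, and several far segments exceed near segments with as many start sites.

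The densest 100 kb of X, chrX:2041458-2137964, held 16 summits, 10 of them at promoters and 10 present in all 3 replicates. The replicates had 15, 11 and 15 peaks there. Its genes included ph-d and ph-p, the Polyhomeotic pair, csw, which encodes the SHP2-type tyrosine phosphatase Corkscrew, usp, the partner of the ecdysone receptor, Actn, the alpha-actinin gene, Unc-76, moody, CG16903, CG4199 and CG4313. The summits ranged in rank from 6, inside ph-p, to 4407. The widest stretch without a summit was chrX:21631746-22455775, 824029 bp between lncRNA:flam, the precursor of the flamenco piRNA cluster, and Usp2, a ubiquitin protease gene. It contained 25 whole protein-coding genes, and the replicates had 0, 0 and 1 peaks in it. How well reads map there was not examined, so a lack of peaks need not be a lack of binding. The next gaps measured 377980, 342291 and 281302 bp.

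Among gene lists, the cytosolic ribosomal protein genes stood at one extreme. All 15 X-linked members were bound, compared with 62 of 78 on the autosomes (79.5%). Of all protein-coding genes, 22.1% were bound on X and 25.5% on the autosomes. The replicates bound 13, 14 and 15 of the 15 ribosomal protein genes of X. The strongest of these were RpL22 at rank 145, RpS28b at 226 and RpL17 at 318. The RpL17 summit also lay within 500 bp of tRNA:Phe-GAA-1-2 and snoRNA:Psi28S-1232. RpS14a and RpS14b are near-identical neighbouring copies, so reads may be shared between their peaks at ranks 3012 and 1477. Of 11 X-linked mitochondrial ribosomal protein genes mRpS30 and mRpL16 were bound (18.2%), against 35 of 62 on the autosomes, with 2, 2 and 1 bound in the replicates. Of 7 X-linked translation factor genes eIF2Bepsilon at rank 2083 and eIF4H1 at 2867 were bound (28.6%), against 24 of 47, with 3, 1 and 1 in the replicates. The unbound translation factor genes were eIF2Bbeta, eIF3g1, eIF5, eIF4E7 and eIF2alpha.

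**Figure D4:**
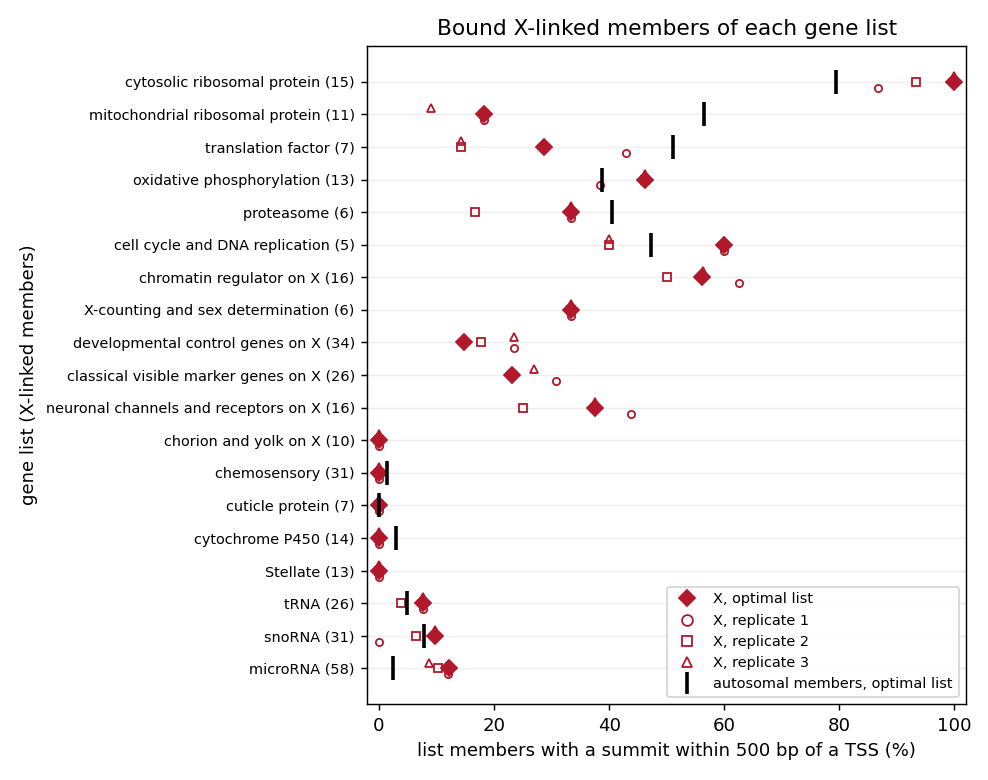
Share of X-linked members of each gene list with a summit within 500 bp of a TSS, in percent, for lists of at least 5 X-linked members (their number in parentheses). Filled diamonds are the optimal list, open symbols the replicates and black ticks the autosomal members; all 15 ribosomal protein genes of X are bound, and 5 lists stand at 0.

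Oxidative phosphorylation genes were bound in 6 of 13 cases on X (46.2%) and 29 of 75 on the autosomes. The shares of all protein-coding genes were 22.1 and 25.5%. The bound oxidative phosphorylation genes of X were led by ND-ASHI, a complex I subunit, at rank 475. COX6B of complex IV followed at 888 and ND-24 of complex I at 947. Of 6 proteasome genes Rpt4 and Rpt6, ATPases of the regulatory particle, were bound at ranks 2743 and 3524, while Rpt3, Prosalpha4, Rpn13R and Prosbeta2R1 were not; on the autosomes 17 of 42 were. Neither X-linked vacuolar ATPase gene, Vha36-3 or VhaAC39-1, was bound. Of 5 cell cycle genes Cdk7 (rank 1758), CycD (2421) and Rbf, the Retinoblastoma homologue (4203), were bound, and Mcm3 and Mcm6 of the replicative helicase were not; on the autosomes 17 of 36 were. The shares for the last 3 lists rest on 6 genes or fewer and are given as counts. Replicates 1, 2 and 3 bound 2, 1 and 2 of the proteasome genes and 3, 2 and 2 of the cell cycle genes. The Rpt6 summit ranked 9871 in replicate 2 and the Rbf summit 14470 in replicate 3.

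The list of chromatin regulators on X was bound in 9 of 16 cases (56.2%) beside 22.1% of protein-coding X genes. The replicates had 10, 8 and 9 bound. After ph-p came fs(1)h, the BET bromodomain protein gene, at rank 377 with replicate ranks of 406, 474 and 356, and Bap60, a Brahma complex subunit gene, at 1382. Set2 (H3K36 methyltransferase), Hira (chaperone of histone H3.3), ph-d and e(y)3 (a subunit of a Brahma complex) were bound at 1459, 2508, 3235 and 3361. The histone methyltransferase gene trr shares its summit, rank 3887, with mRpL16. One of the 9, baz (rank 3252), encodes the polarity protein Par-3 rather than a chromatin protein. The acetyltransferase gene nej had its nearest summit 690 bp from a start.

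Of the dosage compensation genes on X, lncRNA:roX2 was bound and lncRNA:roX1 and mof were not in the optimal list; replicate 1 also had a summit at the roX1 promoter, at rank 4094. The roX2 summit was 1 bp from the annotated start, at rank 379, with ranks of 497, 292 and 456 in the replicates. Its window, printed above, holds GGTCACAC and no CGATA. The nearest optimal summits to roX1 and mof were 5962 and 2838 bp from a start. Of 6 genes that count X chromosomes or decide sex, Sxl, the master switch of female development, was bound at rank 608 with replicate ranks of 495, 1059 and 586. The splicing factor gene snf was bound at 1758 through the summit it shares with Cdk7. The X-counting genes sisA, sc, run and upd1 had no summit within 500 bp, and their nearest were 4174, 97980, 35538 and 14039 bp away. None of the 4 achaete-scute complex genes, ac, sc, l(1)sc and ase, was bound.

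Developmental control genes were bound in 5 of 34 cases (14.7%) beside 22.1% of protein-coding X genes. These were N, the Notch receptor (rank 311), egh, a glycosyltransferase (423), sgg, the kinase GSK-3 (432), csw (583), and hiw, a ubiquitin ligase of synapses (2996), whose summit is shared with ND-B18. All 5 summits were in all 3 replicates, with N at 216, 398 and 515. The replicates had 8, 6 and 8 of the 34 bound, and 2 of these shares are above the 22.1%. Genes known by classical visible phenotypes were bound in 6 of 26 cases (23.1%), near the 22.1% of protein-coding X genes. The replicates had 8, 6 and 7 bound. The bound genes were led by ec (2019), sdt (2404) and wapl, a cohesin release factor (3154). The summits of wapl, fw, g and rux were not in all 3 replicates, and that of wapl ranked 23810 in replicate 2. Of 16 genes for neuronal channels and receptors 6 were bound (37.5%), and 7, 4 and 6 in the replicates. The 6 were dnc, elav, the neuronal RNA-binding protein (303), amn, a neuropeptide gene (968), eag, a potassium channel (1339), slgA (2037) and norpA (4317). Of these, eag is the only one named here as a channel. The members para, Sh, cac, shakB and nAChRalpha7 were not bound. The norpA promoter summit is separate from the stronger intronic one.

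Besides the vacuolar ATPase and achaete-scute genes, no X-linked member was bound in 5 further lists. These were 10 chorion and yolk genes (Cp36, Cp38, dec, Yp1, Yp2, Yp3, Cp7Fa, Cp7Fb, Cp7Fc and Vml), 31 chemosensory genes, 7 cuticle genes (Cpr5C, Cpr11A, Cpr11B, Cpr12A, TwdlX, TwdlY and TwdlZ), 14 cytochrome P450 genes and the 13 annotated Stellate repeats. The replicates had 0 in each of the 5 as well. Autosomal members were also rarely bound, beside 25.5% of protein-coding genes on the autosomes. These members were bound in 3 of 205 chemosensory, 0 of 114 cuticle and 2 of 67 cytochrome P450 cases. The chorion and yolk list and the Stellate list had no autosomal members. The Stellate copies are near-identical in sequence, so the value for them is uncertain. Small RNA genes were bound in 2 of 26 cases for tRNAs, 3 of 31 for snoRNAs and 7 of 58 for microRNAs, against 4.83, 7.82 and 2.48% of autosomal members. The replicates bound 2, 1 and 2 tRNA genes, 0, 2 and 3 snoRNA genes and 7, 6 and 5 microRNA genes. The microRNA genes mir-982 and mir-303 share 1 summit, at rank 603, so the 7 genes stand for fewer sites. Annotated long non-coding and other ncRNA genes were bound in 48 of 483 cases on X (9.94%), against 6.26% on the autosomes.

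X promoter peaks carried the BEAF-32 word more often than autosomal ones, and so did X promoters in general. CGATA, on either strand and within 50 bp of the summit, was in 37.9% of X promoter peaks and 30.8% of autosomal ones. The replicates gave 36.5, 34.3 and 34.4% on X and 28.9, 28.7 and 29.5% on the autosomes, without overlap, a difference of 6.00 ± 1.37 points (n = 3). In windows of the same size at all TSS positions the shares were 25.9% on X and 20.5% on the autosomes. In introns they were 12.3 and 11.8%, and in windows moved 500 bp from all summits 13.9 and 11.6%. The share was thus also higher on X over the whole set of annotated promoters.

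The complete DRE, TATCGATA, was within 50 bp of 39 X summits (5.37%) and of 4.74% of autosomal summits, against 0.275 and 0.488% in the moved windows. Its share in the replicates, 4.27, 3.86 and 4.88% on X and 3.87, 4.01 and 4.35% on the autosomes, differed by 0.26 ± 0.357 points, and the sign was not shared by all 3 (exact permutation p = 0.50, adjusted p = 0.558). In promoter peaks alone the DRE share was 8.64% on X and 6.75% on the autosomes. The replicates gave 6.42, 6.08 and 7.45% on X and 5.53, 5.71 and 6.36% on the autosomes. This difference, 0.786 ± 0.37 points (n = 3), had 1 sign in all 3, and X was outside the range of the long arms in 2 of 4 lists. At all TSS windows the DRE share was 5.02% on X and 3.51% on the autosomes. The Motif 1 core GGTCACAC was in 3.72% of X and 4.50% of autosomal summit windows, in 4.20 and 3.84% of TSS windows, and in 0.413 and 0.406% of the moved windows. Both words were therefore far above the moved windows on X and the autosomes alike, but most summits lie at promoters and the moved windows leave them. Beside all TSS windows, X summits were close for the DRE and lower for the Motif 1 core, while autosomal summits were higher for both. In X promoter peaks alone the shares were 8.64% for the DRE and 6.07% for the Motif 1 core.

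GA and CA repeats were less frequent at X summits than 500 bp away. GAGAGAGA was in 7 X windows (0.964%) against 0.65% on the autosomes, and in the moved windows in 1.65 and 1.08%. CACACACA was in 1.65 and 1.46%, and in 4.96 and 3.31% of the moved windows. The shorter GAGAG was in 10.7% of X summit windows, below the 17.5% of the moved ones, with 11.2 and 12.8% on the autosomes. All-TSS windows of X held GAGAGAGA in 1.10%, CACACACA in 2.64% and GAGAG in 12.5% of cases. The GA and CA words overlap their own shifted copies, and each window was counted once.

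Base composition changed with strength on X as elsewhere. The 18 X peaks among the strongest 100 had a median GC content of 33.2% in the window of 50 bp on each side, and the 82 autosomal ones 33.7%. Below rank 3000 both medians were 39.6%. In replicates 1, 2 and 3 the X medians were 32.7, 32.7 and 32.2% in the first band and 39.6, 38.6 and 39.6% in the last. By class, X promoter peaks had a median of 41.6%, intronic peaks 34.7% and intergenic peaks 39.6%, against 40.6, 35.1 and 38.6% on the autosomes. Among the strongest 100 peaks, 33.3% of the X members were intronic and 13.4% of the autosomal ones, on 18 and 82 peaks, and the replicates gave 35.3, 40.0 and 35.0% against 13.3, 14.1 and 15.0%.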

How the data were processed

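ChIP-seq peak lists of 3 biological replicates of 1 transgenic line were analysed, as deposited, in dm6. Per the labels, chromatin was sonicated and precipitated with an anti-GFP antibody; for the aligner, peak caller and IDR threshold nothing is stated in the sources used here. The deposited lists give a signal per peak (column 7) and a −log10 q-value (column 9, from 3.42 to 3.90 in the optimal list); the signal was used only to rank peaks within a list. Replicate lists hold 30000 entries with background; their strongest 4417 peaks on the 6 arms were used. All 4417 optimal peaks are in the pooled list.

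Summits were placed on the Ensembl release 115 annotation (BDGP6.54, 18164 genes without transposable elements, 13945 protein-coding, 23581 TSS positions). Python 3 with numpy, pandas and scipy computed shares by arm. Differences X minus autosomes were tested over the 3 replicates with an exact two-sided sign permutation test, Benjamini-Hochberg adjusted over 29 differences; peaks were not treated as replicates. Of these, 23 had 1 sign in all 3 replicates and 6 did not. Functions were tested on simulated data. Genes named are those at the 25 strongest X peaks found in all 3 replicates, the leading bound members of each list, all members of lists of 10 or fewer, and the ends of the extreme stretches. RefSeq synonyms gave the current symbol of 12 list names. Members and lists were chosen with earlier results of these data known. Alternatives tried concern the peaks used, distances, matching, the build and leaving out replicates. The build dm3 lists of single replicates were not used.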

Additional observations from a re-analysis of the deposited data

How the results depend on the processing

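Values are X minus autosomes in percentage points unless stated. The share of peaks on X fell from 16.4% to 15.6% over the strongest 10000 peaks and to 15.1% over all relaxed peaks of the replicates. The promoter share, −6.86, was −8.49 in the 50% of peaks with higher signal, −8.60 in peaks found in all 3 replicates, −9.98 at 250 bp, −7.66 with protein-coding TSSs alone, and −7.39 to −8.60 without 1 replicate. Bound coding genes, −3.37, were −2.51 in the stronger 50% and −1.96 when only the nearest TSS counted. The median gap, 699 bp, was 2718 and 2446 bp in the stronger and the replicated peaks, 920 bp with summits within 1000 bp merged, and 1647 to 3644 bp without 1 replicate.

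The intronic share, 10.6, was 11.2 and 11.4 in the stronger and replicated peaks, 12.6 at 250 bp, 9.04 at 1000 bp, 5.80 with 1 intronic peak per host gene, and 10.6 to 11.9 without 1 replicate. Summits within 100 bp, −10.2, were −11.5 in replicated peaks and −10.5 to −12.0 without 1 replicate. Head-to-head genes, −8.30, were −6.65 and −9.52 in the stronger and replicated peaks and −8.30 to −9.72 without 1 replicate. Alternatives for these 3 results were chosen after seeing the data.

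The results near 0 changed sign. The median rank percentile, −0.16, was 1.54 in replicated peaks, 0.0651 in dm3 and 1.03 to 2.14 without 1 replicate. The share found in all 3 replicates, −0.69, was 0.0942 for summits within 50 bp, 1.84 and 0.744 with the strongest 2000 and 10000 peaks, and −1.25 to 0.0752 without 1 replicate. The DRE share, 0.63, was 0.168 and 0.258 in the stronger and replicated peaks, 1.89 in promoter peaks, and −0.105 to 0.685 without 1 replicate. The cause of each shift was not tested. No replicate block was added, since X and autosomal values were already compared within each replicate. Without read counts, what sequencing depth limits is unknown, and 3 replicates cannot reach p below 0.25.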
